A study of Mus musculus with 6 samples.

Results

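Aquaporins, the water channel family, were examined in hearts of mouse pups in which a human SRY transgene was activated (hSRY-ON) and in hearts of hSRY-OFF pups. The members were the 9 genes Aqp1, Aqp2, Aqp3, Aqp4, Aqp5, Aqp7, Aqp8, Aqp9 and Aqp11, and every probe that carried one of these symbols was taken. They had 16 of the 25697 probes and were 9 of the 18138 gene symbols of the array. The 3 remaining aquaporin symbols of the array, Aqp6, Aqp12 and Mip, had 1 probe each, and none of these was above background in any heart. The members were chosen by their symbols, but the family was selected on the known intensities of these same hearts, the detection and the change of each probe between the groups, so its differences between hSRY-ON and hSRY-OFF are given as a description and carry no p-value.

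Aquaporins sit in cell membranes as groups of identical subunits, each with its own pore, and let water follow an osmotic gradient. The classical members pass water, the aquaglyceroporins also pass glycerol and other small uncharged solutes, and some members pass ammonia or hydrogen peroxide. In the heart the family is best known for Aqp1 in capillary endothelium, Aqp4 in the membrane of mouse cardiac myocytes, and Aqp7 as a route by which myocytes take up glycerol as a fuel.

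Total RNA of 3 hSRY-ON and 3 hSRY-OFF hearts was hybridized to 1 Illumina MouseRef-8 array each. All animals were males at postnatal day 6, of strain FVB by the labels and FVB/N by the methods. The hSRY-ON pups carried the Signalox-hSRY transgene, inserted as a single copy at the H11 locus, in which Cre protein brought in by the oocyte of a Ddx4-Cre mother had joined FLAG-tagged human SRY and EGFP to the broadly active CAG promoter from the 1-cell embryo onward, and the pups chosen for the arrays had not inherited Ddx4-Cre itself. Per the study's methods, hSRY-OFF stands for Signalox-hSRY without recombination, in which CAG drives DsRed2, whereas elsewhere the control littermates are described as carrying Ddx4-Cre alone or no transgene, so the genotype of the control hearts is uncertain. The recombination was not limited to the heart, and hSRY-ON pups grow slowly and die young, so that direct and indirect differences cannot be told apart in these hearts. The arrays do not measure the level of human SRY, and the single probe for mouse Sry was above background in 0 hearts.

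A probe was called detected in a heart at a detection p-value under 0.05, and 12138 to 13172 probes (47.2% to 51.3%) were detected per array. All 9 cardiac myocyte markers on the array were detected in every hSRY-OFF heart. The 2 brightest, the myosin light chains Myl3 and Myl2, lay at the top of the scale in both groups (15.29 to 15.42) and could hardly show a change. Of the 9, 4 fell (Myh6 by 0.51, Tnni3 by 1.13, Ryr2 by 1.09 and Pln by 1.47) and 0 rose. For Myh6, Tnni3 and Pln the adjusted p was 0.0066 to 0.0185 (limma). Ryr2 was detected in only 2 hSRY-ON hearts, so it passed the filter through the hSRY-OFF hearts, in which it was high. Over all tested genes 14.9% were called higher and 13.9% lower at an adjusted p under 0.05. One heart stood apart. In hSRY-ON replicate 1, the normalized log2 level of Scgb1a1, the secretory protein of airway club cells, was 13.74, against 4.53 to 6.52 in the other hearts, and that of the surfactant protein Sftpd was 9.58 against 4.61 to 5.04. Sftpc, the defining marker of alveolar type II cells, was not detected in that heart, but it was detected in hSRY-ON replicate 3, at 5.32. Scgb1a1 was also detected in hSRY-OFF replicate 2, at 6.52. Since aquaporins are also used by lung and airway cells, each aquaporin is given with and without that heart where it mattered.

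Promoter sequences are shown for Aqp8, Aqp7 and Aqp1, the 3 aquaporins in which at least 2 probes differed, since SRY is a factor that binds DNA through its HMG box. The sequences are the 250 bases before the annotated start, from RefSeq on GRCm38.p6, written 5′ to 3′ on the strand of the gene, with capitals on the letters CACGTG. Aqp8 lies at chr7:123462044-123462293 on the plus strand. Aqp7 has 2 annotated starts, and the one farther upstream is shown, at chr4:41048137-41048386 on the minus strand. Aqp1 lies at chr6:55336049-55336298 on the plus strand.
Aqp8: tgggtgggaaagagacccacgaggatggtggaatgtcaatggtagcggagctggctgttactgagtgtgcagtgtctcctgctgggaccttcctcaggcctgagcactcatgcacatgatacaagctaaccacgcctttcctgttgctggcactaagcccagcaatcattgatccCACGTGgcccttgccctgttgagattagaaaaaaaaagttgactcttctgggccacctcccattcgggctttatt
Aqp7: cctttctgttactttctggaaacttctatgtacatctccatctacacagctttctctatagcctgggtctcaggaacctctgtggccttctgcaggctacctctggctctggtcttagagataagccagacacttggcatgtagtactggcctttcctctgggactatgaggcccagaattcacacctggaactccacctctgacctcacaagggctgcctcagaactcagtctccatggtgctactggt
Aqp1: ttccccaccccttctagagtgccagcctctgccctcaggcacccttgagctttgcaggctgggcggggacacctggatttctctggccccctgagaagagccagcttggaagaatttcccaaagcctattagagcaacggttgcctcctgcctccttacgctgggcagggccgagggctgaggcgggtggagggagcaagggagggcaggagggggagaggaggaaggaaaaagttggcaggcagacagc

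The windows of 8 members, each from 250 bases before to 50 bases after a start, were searched on both strands for AACAAT, the core letters bound by SRY and its SOX relatives. None of the 8 held AACAAT or its reverse ATTGTT, which occurred in 10.7% of 32851 mouse promoter windows of the same length. The E-box letters CACGTG, which read the same on both strands and were added with the sequences in view, stood 75 bases before the start of Aqp8, 58 before that of Aqp2 and 87 before that of Aqp5, and they occurred in 7.15% of all windows. Such matches describe letters in a window and not bound sites. Within the genome, Aqp2 and Aqp5 are neighbours on chromosome 15, and Aqp7 and Aqp3 are neighbours on chromosome 4, with 0 protein-coding genes between them.

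Of the 16 aquaporin probes, 7 were detected in all 6 hearts (the 3 of Aqp1, the 2 of Aqp8, the probe of Aqp4 and 1 of Aqp11), and 4 were detected in 0 hearts (Aqp3, Aqp9, 1 of Aqp7 and 1 of Aqp11). Aqp5 was detected only in hSRY-ON replicate 1. A probe entered the fit when it was detected in at least 3 of the 6 hearts, and 11 probes of 6 genes did so, among 12970 probes overall. The tested Aqp7 probes were detected in all 3 hSRY-OFF hearts but in only 2, 0 and 1 hSRY-ON hearts, so they passed through the group in which they were high and had to differ. In the fit across all probes, 3 aquaporin probes were called higher in hSRY-ON (2 of Aqp8, 1 of Aqp11), against 13.8% of all tested probes. Lower calls were made for 6 probes (3 of Aqp1, 3 of Aqp7), against 13.7% of all, and the probes of Aqp2 and Aqp4 were not called. In either direction 27.5% of all tested probes were called. The hearts of the groups did not overlap for 9 of the 11, and for 45.2% of all tested probes. The median log2 difference, hSRY-ON minus hSRY-OFF, was -0.68 over the 11 probes and -0.00464 over all tested probes.

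**Figure D1:**
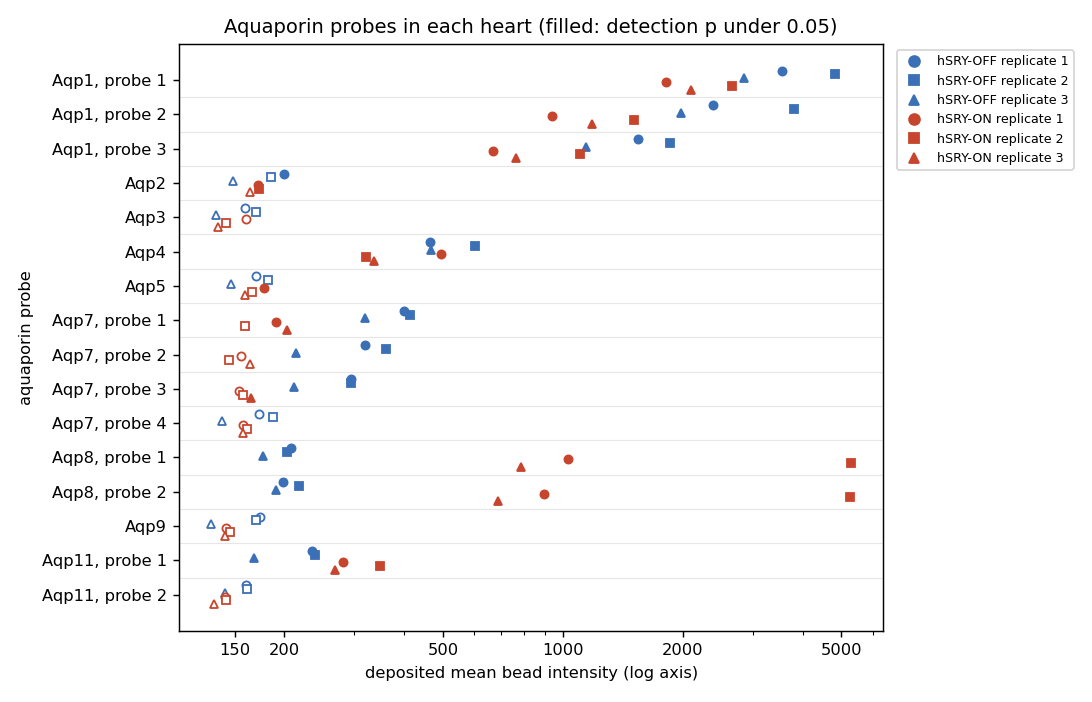
Deposited mean bead intensity (log axis) of each of the 16 aquaporin probes in the 6 hearts, with blue for hSRY-OFF, red for hSRY-ON, a shape for each replicate, and filled symbols where the detection p-value was under 0.05. Aqp1 lay between 669 and 4830, Aqp8 between 177 and 218 in the controls and between 689 and 5294 in hSRY-ON, and open symbols lay at or below 187 in every case.

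The detection plot shows the deposited intensities before any correction. Intensities of different probes cannot be set against each other as amounts of RNA, since probes hybridize with different efficiency, so only the hearts along one line compare. All values from here on are normalized log2 intensities unless an intensity is named. The hearts are bulk tissue, so fewer cells of a type and less RNA per cell cannot be told apart.

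Aqp1 was lower in hSRY-ON by all 3 of its probes. Its brightest probe (ILMN_2980661) had log2 levels of 11.54, 11.89 and 11.79 in hSRY-OFF replicates 1, 2 and 3, and of 10.82, 11.31 and 11.06 in hSRY-ON replicates 1, 2 and 3. Every hSRY-ON heart was below every hSRY-OFF heart, with hSRY-ON replicate 1 the lowest. The difference was -0.68 (SE 0.16, 95% interval -1.06 to -0.30, n = 3 and 3), a level 1.60-fold lower. The probe ILMN_2756486 had 10.94, 11.53 and 11.25 in hSRY-OFF and 9.78, 10.43 and 10.12 in hSRY-ON, a difference of -1.13 (SE 0.21, interval -1.62 to -0.64). The probe ILMN_2980663 had 10.25, 10.44 and 10.42 in hSRY-OFF and 9.18, 9.91 and 9.41 in hSRY-ON, a difference of -0.87 (SE 0.19, interval -1.32 to -0.42). In both of these as well the groups did not overlap and hSRY-ON replicate 1 was lowest, and the centred values of the 3 probes differed from each other by 0.13 to 0.24 (root mean square over the hearts). Without hSRY-ON replicate 1 the 3 differences were -0.56, -0.97 and -0.71. The brightest probe was no longer called without that heart, without hSRY-OFF replicate 2 (-0.60), without hSRY-ON replicate 3 (-0.68) or without normalization between arrays (-0.79), whereas the other 2 probes were called under every setting.

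Markers of endothelium, in which Aqp1 is known to reside, moved with it in part. Of 7 tested endothelial genes, 4 fell (Cldn5, Cdh5, Esam and Tek), 1 rose (Emcn) and 2 were not called (Pecam1 and Tie1), and the median was -0.45 against 0.00257 over all tested genes, of which 28.8% were called (14.9% higher and 13.9% lower). Cldn5, a claudin of endothelial tight junctions, fell by 1.48 (adjusted p = 0.00213, limma). Emcn, the sialomucin endomucin, rose by 0.53 (adjusted p = 0.0255, limma), and Pecam1 differed by 0.01 (adjusted p = 0.974, limma). The summed background-corrected intensity of the 8 endothelial genes on the array ran from 20300 to 23000 in the controls, and from 16800 to 18800 in the hSRY-ON group. Aqp1 is also a protein of red blood cells. Of 6 tested erythroid genes 1 fell, 0 rose and 5 were not called. Hbb-b1, a beta globin, fell by 1.29 (adjusted p = 0.00502, limma), and Alas2, the first enzyme of erythroid haem synthesis, differed by -0.50 (adjusted p = 0.35, limma). Hba-a1, the alpha globin, was at the top of the scale in both groups (15.39 to 15.49). It also entered the erythroid sums, 49900 to 64600 in the controls and 52200 to 57800 in hSRY-ON, so that nothing is read from them. The part of either cell type in the lower Aqp1 was not tested.

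Aqp4 did not separate the groups. Its only probe had log2 levels of 8.09, 8.49 and 8.86 in hSRY-OFF replicates 1, 2 and 3 and of 8.63, 7.57 and 7.81 in hSRY-ON replicates 1, 2 and 3. The level of hSRY-ON replicate 1 lay among those of the controls, and the other two hSRY-ON hearts lay below all 3 of them. The difference was -0.48 (SE 0.30, interval -1.18 to 0.22), and it was not called. The interval reaches from a fall by more than 1 log2 unit to a small increase, so these hearts do not set its direction. Without hSRY-ON replicate 1, the heart with the airway transcripts, the difference was -0.79, and over all hearts left out in turn it ranged from -0.79 to -0.26. Slc1a3, a glutamate transporter of astrocytes and other glia, was highest in hSRY-ON replicate 1, at 9.36 against 8.06 to 8.74 in the others, and Mbp, a myelin protein, was at 6.72 there against 6.38 to 6.98. The glial gene Gfap was detected in 0 hearts, and glial sums were 380 to 483 in the controls and 792, 476 and 550 for replicates 1, 2 and 3 of hSRY-ON. The part of these cells in the Aqp4 level was not tested.

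In muscle and brain Aqp4 is held at the membrane by the dystrophin complex. Of 8 tested genes of that complex, 2 rose, 2 fell and 4 were not called, with a median of 0.22, against 28.8% called of all tested genes. Dtnb, a dystrobrevin, rose by 1.16 (SE 0.25, adjusted p = 0.0125, limma), with its highest level, 8.50, in hSRY-ON replicate 1. Both probes for Dmd, which encodes dystrophin, were detected in 0 hearts although cardiac muscle uses the gene, so they give no level.

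Aqp2, the vasopressin-regulated channel of the kidney collecting duct, was at the edge of detection. It was detected in hSRY-OFF replicate 1 and in hSRY-ON replicates 1 and 2, and its deposited intensities were 199.9, 185 and 149 in hSRY-OFF and 172, 172 and 164 in hSRY-ON. The groups overlapped, with a log2 difference of 0.11 (SE 0.19, interval -0.33 to 0.54) whose sign turned without normalization between arrays (-0.022) and without hSRY-OFF replicate 2 (-0.011). Of the 6 kidney tubule genes on the array 5 were detected in 0 hearts, Umod, Slc12a1 and Avpr2 among them, and the remaining one, Slc12a3, differed by 0.05 (adjusted p = 0.79, limma). Aqp5, the channel of salivary, lacrimal and airway glands and of alveolar type I cells, had intensities of 170, 182 and 147 in hSRY-OFF and 178, 166 and 159 in hSRY-ON. Its one detected value was that of hSRY-ON replicate 1 (detection p-value 0.0213), the heart with the high Scgb1a1 and Sftpd. Ager, a marker of alveolar type I cells, was detected in all 6 hearts, at 6.82 in that heart against 6.05 to 7.05 in the others. The lung epithelium genes summed to 14600 in that heart and to 137 to 235 in the other 5. Of 3 tested ones, Sftpb, Ager and Foxj1, 0 were called, against 28.8% of all tested genes. Scgb1a1 and Sftpd did not enter the fit, so this count does not cover them.

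Aqp8 was the aquaporin with the widest separation. Its first probe (ILMN_2854157) had deposited intensities of 208, 203 and 177 in hSRY-OFF replicates 1, 2 and 3 and of 1030, 5294 and 784 in hSRY-ON replicates 1, 2 and 3. The second probe (ILMN_2756379) had 198, 218 and 190 in hSRY-OFF and 895, 5247 and 689 in hSRY-ON. Both probes were detected in every hSRY-OFF heart, but with detection p-values between 0.00125 and 0.0401, just above background. On the normalized scale the first probe had 5.82, 5.41 and 6.15 in hSRY-OFF and 9.94, 12.37 and 9.45 in hSRY-ON, and the second had 5.61, 5.73 and 6.48 against 9.71, 12.36 and 9.22. No hearts overlapped, and the lowest hSRY-ON heart was above the highest hSRY-OFF heart by 3.30 and 2.73 log2 units.

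The differences of Aqp8 were 4.79 (SE 0.68, interval 3.21 to 6.38) and 4.49 (SE 0.74, interval 2.76 to 6.22). Among the hSRY-ON hearts, replicate 2 lay far above the others. Its intensity was 5.14-fold and 5.86-fold above that of replicate 1, and 6.75-fold and 7.61-fold above that of replicate 3, by the first and second probe. When all 12970 tested probes were ordered by how far hSRY-ON replicate 2 exceeded the higher of the other two hSRY-ON hearts, the Aqp8 probes were the top 2, at 2.66 and 2.44 log2 units, ahead of Ctnnal1 at 1.83 and Clec4d at 1.77. Only 44 tested probes exceeded 1 log2 unit in this way. The standard deviation among the hSRY-ON hearts was 1.57 and 1.69, against a median of 0.17 over tested probes, and 5 and 4 probes had a larger one. Without hSRY-ON replicate 2 the differences were 3.89 and 3.52. Without background correction they were 3.16 and 2.98, and both probes were called under every setting in which they were tested.

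Aqp8 passes ammonia and hydrogen peroxide as well as water, and is known from hepatocytes, the exocrine pancreas and the intestine. Of 8 genes of exocrine pancreas and gut 7 were detected in 0 hearts, and the remaining one, the carboxypeptidase Cpa1, fell by 1.83. Cpa1 was detected in all 3 hSRY-OFF hearts but in only 2 hSRY-ON hearts. It thus passed the filter through the group in which it was high, and no p-value is given for it. Of 10 hepatocyte genes 6 were detected in 0 hearts, Alb, Apoh and Cyp2e1 among them. Of 3 tested ones 2, the plasma protein genes Ahsg and Ttr, were called higher in hSRY-ON, against 14.9% of all tested genes. Serpina1b differed by 0.55 and was not called (adjusted p = 0.391, limma). Apoa1 was not tested. It was detected in 0 hSRY-OFF and 2 hSRY-ON hearts, with 5.52, 5.12 and 7.23 in hSRY-ON replicates 1, 2 and 3. Ahsg, which encodes fetuin-A, had 7.64, 7.53 and 7.95 in hSRY-OFF and 11.45, 10.95 and 9.92 in hSRY-ON, and it rose by 3.07 (adjusted p = 0.00108, limma). Ttr, transthyretin, was above background in 0 hSRY-OFF hearts, and its level in hSRY-ON was at least 3.87-fold higher. Ttr entered the fit only through the hSRY-ON hearts and had to differ, so no p-value is given for it. The hepatocyte sums were 295 to 403 in the controls and 3070, 2300 and 1390 for replicates 1, 2 and 3 of hSRY-ON. Ttr was highest in replicate 2, with 7.49 and 7.66 in replicates 1 and 2, whereas Ahsg was highest in replicate 1. Their part in the Aqp8 level was not tested. Albumin, the defining hepatocyte transcript, had levels of 4.44 to 4.58 in all 6 hearts.

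The genes whose centred log2 values came closest to those of the first Aqp8 probe over the 6 hearts were Vdr, the vitamin D receptor, Serpina3n, an inhibitor of serine proteases, and Fam159b. Their root mean square differences from Aqp8 were 0.70, 0.71 and 0.80, and 0 of the 9659 other tested genes came within 0.50. Vdr had 5.31, 5.89 and 5.46 in hSRY-OFF and 8.84, 10.50 and 8.74 in hSRY-ON. Serpina3n had 8.42, 8.43 and 8.42 against 12.23, 13.13 and 11.33. In all 3 genes, as in Aqp8, hSRY-ON replicate 2 was the highest heart and replicate 3 the lowest of the hSRY-ON group. The 3 genes were picked for their likeness to Aqp8 over these same 6 hearts, so the choice itself favours a shared order.

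**Figure D2:**
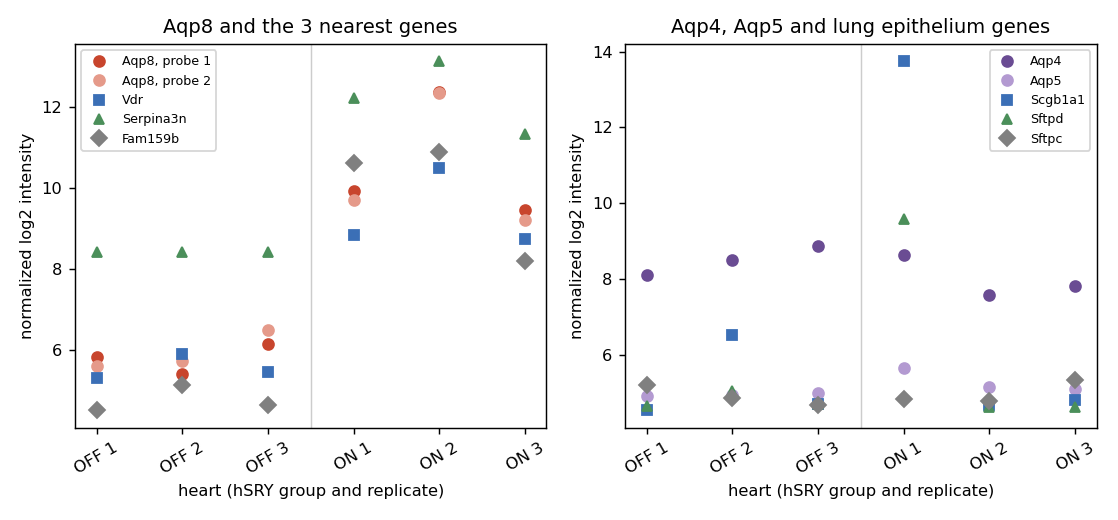
Normalized log2 intensity by heart (OFF and ON with the replicate number; the vertical line parts the groups) of Aqp8 with its 3 nearest genes on the left, and of Aqp4 and Aqp5 with 3 lung epithelium genes on the right. Aqp8 reached 12.37 in ON 2 against 9.94 and 9.45 in ON 1 and ON 3, and Scgb1a1 reached 13.74 in ON 1, where Aqp4 was at 8.63.

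Genes of ammonia and urea handling were called in both directions. Of 5 tested genes 1 rose, 1 fell and 3 were not called, with a median of 0.11, against 28.8% called of all tested genes. Of the 12 on the array 7, the urea cycle genes Cps1 and Otc among them, were detected in 0 hearts. Rhcg, an ammonia channel, had 4.95, 5.09 and 5.08 in hSRY-OFF, where it was above background in 0 hearts. In hSRY-ON it had 5.57, 5.72 and 5.72, at least 1.18-fold higher. Rhcg was called, but it entered the fit only through the hSRY-ON hearts and so had to differ. That call was lost without background correction (adjusted p = 0.103, limma) and without normalization between arrays (adjusted p = 0.299, limma). Arg1, the last enzyme of the urea cycle, fell by 1.59 (SE 0.24), from 7.42, 6.66 and 6.45 to 5.18, 5.39 and 5.19. It was detected in all 3 hSRY-OFF hearts but in only 1 hSRY-ON heart. Arg1 thus passed the filter through the group in which it was high, so no p-value is given for it. Without background correction its difference was -0.56.

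Aqp7, the glycerol channel of fat and muscle, was lower in hSRY-ON by the 3 of its 4 probes that were tested. Its brightest probe (ILMN_1254953) had log2 levels of 7.76, 7.68 and 8.04 in hSRY-OFF replicates 1, 2 and 3 and of 5.98, 4.94 and 6.29 in hSRY-ON replicates 1, 2 and 3. The hSRY-ON hearts were all far below the controls, replicate 2 was lowest and was not detected, and the difference was -2.09 (SE 0.33, interval -2.85 to -1.33). The probe ILMN_1223330 had 7.22, 7.36 and 6.93 in hSRY-OFF and 4.92, 4.62 and 5.27 in hSRY-ON, where it was detected in 0 hearts, so its level was at least 3.60-fold lower. The probe ILMN_2943165 had 7.01, 6.80 and 6.91 in hSRY-OFF and 4.86, 4.89 and 5.30 in hSRY-ON, with a difference of -1.89 (SE 0.15, interval -2.24 to -1.53), and it was detected in 1 hSRY-ON heart. The probe ILMN_2607964 was detected in 0 hearts of either group, with intensities of 139 to 187, and gives no level of Aqp7. Since 6 of the 9 hSRY-ON values of the 3 tested probes were not above background, the size of the difference depended on the background correction. Without it the 3 differences were -0.93, -0.81 and -0.64.

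The 3 genes nearest to Aqp7 over the 6 hearts were Gm826, Fbxl22 and AW551984, with root mean square differences of 0.22, 0.22 and 0.23. Only 4 of the 9659 other tested genes came within 0.25 of Aqp7, whereas 794 did so for Aqp1, whose nearest were Arhgap12 (0.05), Fars2 (0.07) and Srgn (0.09). For Aqp4, 24 genes did so, with Pla2g5 (0.18), D5Ertd135e (0.18) and Kctd15 (0.19) nearest. For Aqp2, whose differences between hearts were small, 1810 did so, with B4galt7 (0.05), Dexi (0.08) and Rpa2 (0.08) nearest. A gene whose values differ little over the hearts has many near neighbours by this measure.

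Glycerol taken up through Aqp7 is phosphorylated and used for lipid or energy. Of 10 tested genes of glycerol handling 2 rose, 2 fell and 6 were not called, with a median of -0.25. Over all tested genes 28.8% were called, 14.9% higher and 13.9% lower. Agpat9, an acyltransferase for glycerol 3-phosphate, had 9.42, 9.34 and 9.80 in hSRY-OFF and 7.99, 7.81 and 8.15 in hSRY-ON, and it fell by 1.54 (SE 0.16, adjusted p = 0.000801, limma). Lipe, hormone-sensitive lipase, rose by 0.71 (SE 0.19). It was detected in 1 hSRY-OFF heart and all 3 hSRY-ON hearts, so it passed the filter through the group in which it was high. Its call was lost under 9 of the other settings, among them the omission of hSRY-ON replicate 1 (adjusted p = 0.084, limma). Both probes of glycerol kinase were detected in 0 hearts. Aqp7 is also a gene of adipocytes. The sums of the 8 adipocyte markers were 123 to 608 in the controls and 2180, 628 and 1170 in hSRY-ON, and of 3 tested genes 2 rose and 0 fell. Ucp1, the uncoupling protein of brown fat, had 4.64, 5.03 and 8.88 in hSRY-OFF and 10.81, 8.80 and 9.94 in hSRY-ON (difference 3.67). Adiponectin, Adipoq, rose by 1.48. Ucp1 and Adipoq were detected in 1 and 2 hSRY-OFF hearts and in all 3 hSRY-ON hearts. Both thus passed the filter through the group in which they were high, and no p-value is given for them. Plin1, Cidec, Lep and Retn were detected in 0 hearts. Fabp4, the fatty acid binding protein of adipocytes, was not tested, with 5.96, 5.71 and 5.04 in hSRY-OFF, where it was detected in 2 hearts, and 5.01, 5.15 and 4.84 in hSRY-ON, where it was detected in 0. In skeletal muscle, where Aqp7 is also present, the marker genes summed to 513 to 660 in the controls but to 346 to 386 in hSRY-ON, and of 5 tested genes 1 rose and 3 fell. Myh8, the perinatal myosin, and Tnni2, the fast troponin I, fell by 1.42 and 1.91 (adjusted p = 0.0146 and 0.000559, limma). Actn3, the 1 that rose, had 4.64, 4.87 and 4.79 in hSRY-OFF, where it was detected in 0 hearts. In hSRY-ON Actn3 had 7.18, 7.47 and 6.52, and it entered the fit only through these hearts. Pvalb, also counted among those that fell, was detected in 3 hSRY-OFF and 0 hSRY-ON hearts. It entered the fit only through the hSRY-OFF hearts, so it too had to differ. Mylpf differed by 0.38 and was not called (adjusted p = 0.0926, limma). The cardiac myocyte genes, with Myl2 and Myl3 at the top of the scale among them, summed to 179000 to 194000 in the controls and 171000 to 182000 in hSRY-ON, while 4 of 9 fell as given above. The part of these cell types in the lower Aqp7 was not tested.

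The other aquaglyceroporins were not detected. Aqp3, the glycerol channel of skin and kidney, had intensities of 159, 170 and 135 in hSRY-OFF and 160, 143 and 137 in hSRY-ON, with detection p-values of 0.124 to 0.782. Aqp9, the glycerol channel of the liver, had intensities of 174, 170 and 131 in hSRY-OFF and 143, 146 and 142 in hSRY-ON, with detection p-values of 0.16 to 0.707. At this signal over background no difference in either gene was detectable, and the arrays do not show that the transcripts were absent. Aqp3 is known from surface epithelium. The markers of surface and airway epithelium summed to 482 to 650 in the controls, and to 1940, 1600 and 1430 for replicates 1, 2 and 3 of hSRY-ON. Of 4 tested ones 3 rose (Krt14, Krt8 and Krt18), against 14.9% of all tested genes called higher. Cdh1, the remaining one, differed by -0.39 and was not called (adjusted p = 0.179, limma). Krt5 and Trp63, which mark basal keratinocytes, were detected in 0 hearts. Krt8 and Krt18, the keratins of simple epithelia, rose by 1.91 and 1.97 (adjusted p = 0.000369 and 8.25e-05, limma).

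Aqp11 was higher in hSRY-ON by the 1 of its 2 probes that was detected. This member differs from the others in its pore signature and resides in the endoplasmic reticulum, where it is thought to pass water and hydrogen peroxide. The probe ILMN_1225901 had log2 levels of 6.29, 6.12 and 5.84 in hSRY-OFF replicates 1, 2 and 3 and of 7.36, 7.77 and 7.21 in hSRY-ON replicates 1, 2 and 3. All hSRY-ON hearts lay above all hSRY-OFF hearts, and replicate 2 was the highest. The difference was 1.37 (SE 0.19, interval 0.93 to 1.80), a level 2.58-fold higher, and with each heart left out it stayed between 1.20 and 1.49. Without background correction it was 0.61. The deposited intensities were 235, 239 and 168 in hSRY-OFF and 282, 348 and 267 in hSRY-ON, close to background in the controls. The probe ILMN_2670407 had intensities of 134 to 161 and was detected in 0 hearts, so that the higher level of Aqp11 rests on a single probe. The nearest genes over the 6 hearts were Plagl1, a zinc-finger transcription factor (0.11), Tulp4 (0.13) and Lsr (0.13), and 71 genes came within 0.25.

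Enzymes that make or remove hydrogen peroxide were called in both directions, and most were not called. Of 12 tested genes 1 rose, 4 fell and 7 were not called, with a median of -0.15. Over all tested genes 14.9% were called higher and 13.9% lower. Gpx3, the secreted glutathione peroxidase, had 13.39, 13.45 and 13.69 in hSRY-OFF and 15.00, 15.01 and 14.91 in hSRY-ON, and it rose by 1.46 (SE 0.13, adjusted p = 0.000376, limma). Sod2, the mitochondrial superoxide dismutase, fell by 0.78 (SE 0.14, adjusted p = 0.00678, limma).

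**Figure D3:**
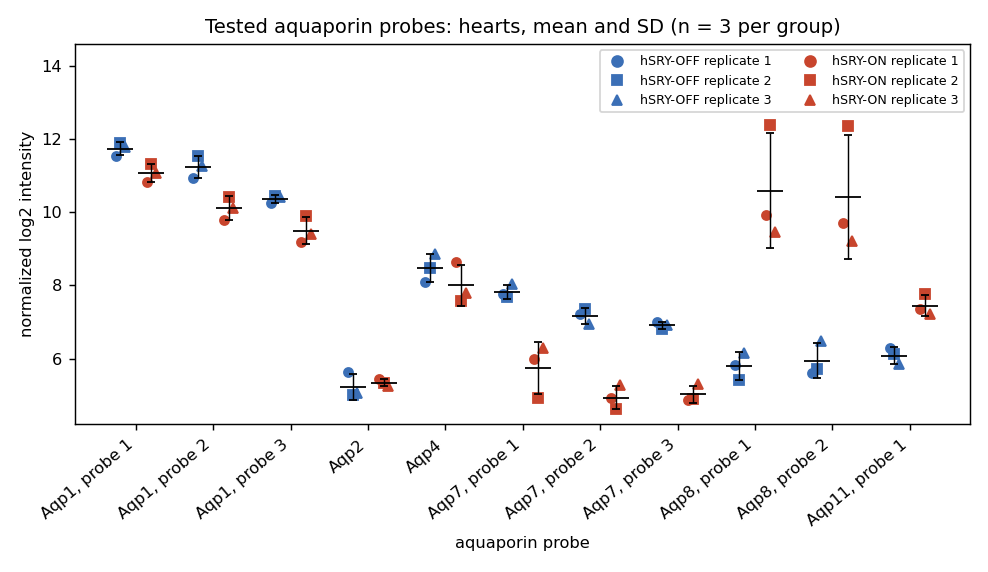
Normalized log2 intensity of the 11 tested aquaporin probes in each heart (blue hSRY-OFF, red hSRY-ON, shapes for replicates), with a horizontal line at each group mean and bars of 1 SD (n = 3 per group). The groups are apart for the probes of Aqp1, Aqp7, Aqp8 and Aqp11 and overlap for Aqp2 and Aqp4, and the longest bars, 1.57 and 1.69, belong to Aqp8 in hSRY-ON.

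The plot of normalized levels sets the members' spread beside their differences. The spread among the hSRY-ON hearts was above that of most probes for several members. For the brightest Aqp7 probe it was 0.71, which 1.09% of tested probes exceeded, and for Aqp4 it was 0.56, which 3.11% exceeded. In the hSRY-OFF hearts these probes had a standard deviation of 0.19 and 0.38. The Aqp1 probes had 0.25 to 0.37 in hSRY-ON, and Aqp11 had 0.29.

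**Figure D4:**
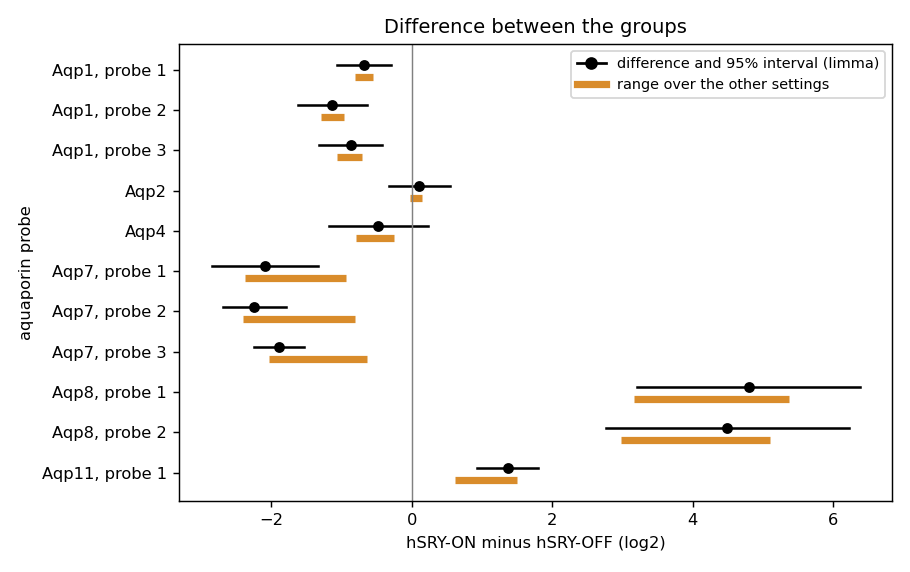
Difference between the groups (hSRY-ON minus hSRY-OFF, log2) for the 11 tested aquaporin probes, with the 95% interval from limma in black and the range of the difference over the other processing settings and left-out hearts in orange. The Aqp7 ranges reach up to -0.93, -0.81 and -0.64, the Aqp8 ranges start at 3.16 and 2.98, and only that of Aqp2 crosses 0.

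Further sets of genes act with water channels. Of 10 tested genes of the osmotic response and cell volume 3 rose, 2 fell and 5 were not called, with a median of -0.02. Wnk4, a kinase that controls chloride cotransport, had 5.85, 4.97 and 5.48 in hSRY-OFF and 7.07, 7.24 and 6.54 in hSRY-ON, and it rose by 1.52 (SE 0.26). It was detected in only 1 hSRY-OFF heart but in all 3 hSRY-ON hearts. Wnk4 thus passed the filter through the group in which it was high, so no p-value is given for it. Without background correction its difference was 0.55. Akr1b3, the aldose reductase that makes the osmolyte sorbitol, fell by 1.41 (SE 0.34, adjusted p = 0.0187, limma), a call lost without hSRY-OFF replicate 1, hSRY-ON replicate 1 or hSRY-ON replicate 2. Nfat5, the transcription factor of the hypertonic response, differed by 0.17 (adjusted p = 0.552, limma). Of 13 tested genes of ion and bicarbonate transport 3 rose, 5 fell and 5 were not called, with a median of -0.11. Slc12a2, the sodium, potassium and chloride cotransporter, rose by 0.68 (SE 0.18, adjusted p = 0.0311, limma), but it was not called under 5 of the other settings. Over all 6 companion lists 28 of 58 tested genes (48.3%) were called, 12 higher and 16 lower, against 28.8% of all tested genes (14.9% higher and 13.9% lower), and the median was -0.12. That count was 16 to 26 with a heart left out, 16 without hSRY-OFF replicate 1 and 17 without hSRY-ON replicate 1 or 2. Over the 12 lists of cell type markers, 23 of 48 tested genes (47.9%) were called, 9 higher and 14 lower, with a median of -0.03, and 12 were called without hSRY-ON replicate 1. Both kinds of list were chosen with earlier results of these data known. Their shares of called genes are therefore a description and no test of enrichment. Thymocyte genes, which no aquaporin result here touches, summed to 142 to 174 in the controls and 141 to 153 in hSRY-ON. Of 3 tested 1 fell, while Ptcra and Lck were not called (adjusted p = 0.96 and 0.563, limma). The one that fell, Cd3g, was detected in 3 hSRY-OFF and 1 hSRY-ON hearts, so it passed the filter through the group in which it was high.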

How the data were processed

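Total RNA of 3 hSRY-ON and 3 hSRY-OFF mouse hearts was measured on single-colour Illumina MouseRef-8 arrays. The authors deposited one linear mean bead intensity per probe and array, neither normalized nor background-subtracted. Beside it they deposited a detection p-value, which compares the probe with negative-control beads. The bead-summary software is not given in the sources used here. The submitters' processing notes name limma and the methods name TCC, without settings. The unit is an array intensity, so limma was used.

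Background correction (normexp fitted from detection p-values, offset 16), quantile normalization and log2 transformation were done by neqc of limma 3.58.1 in R 4.3.3. Probes detected at 0.05 on at least 3 of the 6 arrays were compared between the 2 groups by lmFit and eBayes, two-sided and with no covariate. Benjamini-Hochberg adjustment ran over all tested probes, and a probe was called at an adjusted p under 0.05. Samples were grouped by their titles, and 0 columns belonged to no sample. Genes with several probes are given by the brightest tested probe in the lists. Where 0 arrays of a group detected a probe, its fold is a bound, set against the lowest detected signal of each array. No pair of arrays held identical values. The hearts are biological replicates per the methods. The number of arrays and the signal over background limit the precision.

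The members and lists were chosen with earlier results of these data known. Named were every aquaporin probe, the called gene with the largest increase and decrease of each companion list (6 lists: Aqp4 anchoring, glycerol, osmotic response and cell volume, ion and bicarbonate transport, ammonia and urea, hydrogen peroxide), the 2 brightest genes of each of 12 marker lists, and the 3 genes nearest to each tested aquaporin by the root mean square difference of centred values. The largest decrease of the lists on Aqp4 anchoring and on ion and bicarbonate transport is not reported here. Other genes of these lists, Ctnnal1 and Clec4d were named after their values were seen. Alternatives changed the background correction, normalization, probe filter and variance model, added the replicate number as a block, or left out each heart. The steps were tested on simulated data: of 100 probes changed 2-fold 44 were called, and of 100 changed 4-fold 97, with 4 false calls among 12985 probes. The changed probes excluded the dimmest of the tested ones, so these rates do not hold for probes near background. Only 200 probes were changed there, whereas 3567 were called in the data, so the adjustment also differs. Reference sequences were matched by symbol for 9 of 9 members in RefSeq's gene table (GRCm38.p6), and plots were made in matplotlib 3.10.9 (Python 3.11.15).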

Additional observations from a re-analysis of the deposited data

How the results depend on the processing

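The aquaporin probes called numbered 9 in all, 6 with detection required on all arrays, which tests fewer probes, 8 without normalization between arrays, and 7 to 9 with a heart left out. Aqp2 turned sign without normalization between arrays (-0.022) and without hSRY-OFF replicate 2 (-0.011, with other hearts left out up to 0.15); the cause was not tested. Without normalization between arrays, calls fell to 1897 over all probes (38.5% of them higher, against 50.1%, with the median over all probes at -0.12) and to 17 in the companion lists. With a heart left out, calls ranged from 2206 (without hSRY-OFF replicate 1; 2255 without hSRY-ON replicate 1) to 3669 over all probes, from 16 to 26 in the companion lists, and from 12 (without hSRY-ON replicate 1) to 22 in the marker lists (23 in all). The marker lists had 15 calls with detection required on all arrays and without hSRY-OFF replicate 1 or 2. The labels do not say whether the replicate numbers pair the hearts of the groups. Deviations of same-numbered hearts from their group means correlated across probes at -0.02, 0.04 and -0.07. Those of hSRY-OFF replicate 1 and hSRY-ON replicate 3 correlated at 0.09. With so few hearts these values cannot settle whether the numbers pair them. With the replicate block 9 aquaporin probes, 2842 of all probes, 21 companion genes and 19 marker genes were called. Signal over background limits Aqp2, Aqp3, Aqp5, Aqp9 and the hSRY-ON values of Aqp7.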
